A study of Mus musculus with 26 samples.

Results

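Away from promoters, 409 genomic sites of early TrkC neurons carried Brn3a, Isl1, open chromatin and acetylated H3K27, but no listed Runx3 peak. The 409 sites were chosen from the peak lists themselves. Each is a Brn3a peak with the Brn3a binding motif V$BRNF (a Brn3a_BRNF peak), with its midpoint more than 1 kb from every annotated transcription start site (TSS), that overlapped an Isl1 peak with the LIM-homeodomain motif V$LHXF (an Isl1_LHXF peak), an ATAC peak and an H3K27Ac peak, and no Runx3 peak of any kind. They make up 409 of the 32822 Brn3a peaks on nuclear chromosomes, and 409 of the 159182 peaks in the 5 lists together. The presence of the 4 marks, the absence of Runx3 and the distance from a TSS are therefore the selection and not a result.

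By the main protocol, the neurons came from E11.5 mouse embryos that carry BAC-E-GFP, a bacterial artificial chromosome spanning the *Runx3* locus with GFP fused into *Runx3*, on a Cb6F1 background. GFP marks the Runx3-expressing TrkC neurons, the future proprioceptors of the dorsal root ganglia (DRG). DRG of many embryos were pooled for each sample. CUT&RUN, in which an antibody-tethered nuclease releases the DNA around its target, was carried out with anti-Brn3a (2 samples, 1:200), anti-Isl1 (3 samples, 1:50), anti-H3K27Ac (5 samples, 1:50) and anti-Runx3 (8 samples, 1:200), with non-immune rabbit serum (5 samples, 1:200) as the control for peak calling. The labels give 300000 to 600000 cells per CUT&RUN sample, while the methods of the study give fewer. ATAC-seq, in which a transposase tags accessible DNA, used 3 samples of 50000 cells. For some experiments TrkC neurons of GFP-positive or wild type mice were isolated with magnetic beads in place of cell sorting, and the sources used here do not say which samples these are, so samples without the transgene may be among them. Each list is a consensus over the samples of its target and holds positions and motif marks only, so neither the depth behind a site nor the spread between samples is known.

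Brn3a, encoded by *Pou4f1*, is a POU-homeodomain factor, and Isl1 is a LIM-homeodomain factor. Both are made by newborn sensory neurons of the DRG and trigeminal ganglia, where together they end the expression of early neurogenic genes and start the sensory program. POU4 and LIM-homeodomain proteins bind AT-rich DNA built around the core TAAT. Nucleosomes at active enhancers and promoters carry H3 acetylated on lysine 27, and ATAC marks DNA that nucleosomes leave free.

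Marks at promoters were used to check the cell type. Of 8 genes taken as markers of TrkC neurons, 7 had both an ATAC and an H3K27Ac peak within 1 kb of any annotated TSS. Some of the 8, such as *Elavl4*, are used by most neurons, so this count does not separate TrkC neurons from other neurons. The exception was *Pou4f1*, with 2 ATAC peaks and no H3K27Ac peak there. At the 5′ TSS of the gene alone the count was 6, since *Ntrk3*, the TrkC gene, had neither mark at that TSS. Both marks were found at 2 of 5 glial and neural crest genes (*Erbb3* among them, but not *Sox10*), 2 of 5 mesenchymal genes (*Col1a1* and *Pdgfra*, while ATAC was at all 5), 0 of 5 blood and immune genes and 0 of 4 muscle and liver genes. Marks of other cells in the sorted population were not tested as a source of the sites described here.

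Sequences of 6 of the sites are shown because they display what the motif counts below rest on, together with 2 sites of *Tenm4*, the gene with most sites, that lacked one or both chromatin marks. All are from the + strand of the GRCm38.p6 RefSeq genome, 5′ to 3′, with the TAAT core (ATTA on this strand where the core lies on the other) and the E-box CAGCTG in capitals. Cores are counted on both strands and can overlap. The first 2 sites and both contrasts follow a fixed rule, the Brn3a peak of at most 300 bp nearest to the TSS, applied to the genes with most sites, which gave sites for *Tenm4* and its neighbor *Nars2*. The *Pou4f1*, *Ntrk3*, *Bcl11b* and *Mycn* sites were added after their values were seen, and of the first and second of these, whose Brn3a peaks span 460 and 418 bp, the central 300 bases are given.
Tenm4, intron, chr7:96670790-96671023: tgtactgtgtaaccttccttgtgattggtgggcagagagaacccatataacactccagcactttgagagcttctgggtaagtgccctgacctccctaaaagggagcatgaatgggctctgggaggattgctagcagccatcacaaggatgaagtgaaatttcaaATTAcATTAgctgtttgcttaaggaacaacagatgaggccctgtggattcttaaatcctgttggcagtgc
Tenm4, site nearest to Nars2, intron, chr7:96808005-96808261: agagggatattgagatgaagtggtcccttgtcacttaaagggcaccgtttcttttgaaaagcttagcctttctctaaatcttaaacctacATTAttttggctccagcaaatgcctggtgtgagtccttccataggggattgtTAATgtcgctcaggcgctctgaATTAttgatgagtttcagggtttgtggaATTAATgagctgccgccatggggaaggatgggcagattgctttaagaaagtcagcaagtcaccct
Tenm4 contrast, ATAC alone, intergenic, chr7:95834616-95834846: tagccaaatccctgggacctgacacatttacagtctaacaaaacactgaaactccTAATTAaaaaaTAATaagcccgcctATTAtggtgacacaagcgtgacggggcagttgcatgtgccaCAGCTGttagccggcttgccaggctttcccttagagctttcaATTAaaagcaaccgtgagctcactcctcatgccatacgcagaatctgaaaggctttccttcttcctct
Tenm4 contrast, neither mark, intergenic, chr7:95880229-95880485: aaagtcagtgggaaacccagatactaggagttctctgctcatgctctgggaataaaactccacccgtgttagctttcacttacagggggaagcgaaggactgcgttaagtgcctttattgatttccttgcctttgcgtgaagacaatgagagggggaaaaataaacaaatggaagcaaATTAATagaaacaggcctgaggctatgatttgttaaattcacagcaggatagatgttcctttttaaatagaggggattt
Pou4f1, intron, chr14:104457053-104457352: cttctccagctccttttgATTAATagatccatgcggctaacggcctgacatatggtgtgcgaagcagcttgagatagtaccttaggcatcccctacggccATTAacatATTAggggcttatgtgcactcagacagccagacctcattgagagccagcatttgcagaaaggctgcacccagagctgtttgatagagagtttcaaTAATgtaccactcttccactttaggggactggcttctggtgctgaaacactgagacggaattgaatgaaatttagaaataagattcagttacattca
Ntrk3, intergenic, chr7:77771664-77771963: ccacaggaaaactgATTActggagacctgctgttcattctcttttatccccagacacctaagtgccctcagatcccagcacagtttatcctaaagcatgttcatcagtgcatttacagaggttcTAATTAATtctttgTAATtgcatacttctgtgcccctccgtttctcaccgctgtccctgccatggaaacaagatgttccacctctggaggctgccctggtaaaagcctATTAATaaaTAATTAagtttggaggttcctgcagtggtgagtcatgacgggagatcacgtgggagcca
Bcl11b, intron, chr12:107960053-107960215: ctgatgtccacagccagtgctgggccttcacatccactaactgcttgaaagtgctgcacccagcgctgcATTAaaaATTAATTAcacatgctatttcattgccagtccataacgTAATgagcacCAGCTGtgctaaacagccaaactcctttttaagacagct
Mycn, intergenic, chr12:12685028-12685230: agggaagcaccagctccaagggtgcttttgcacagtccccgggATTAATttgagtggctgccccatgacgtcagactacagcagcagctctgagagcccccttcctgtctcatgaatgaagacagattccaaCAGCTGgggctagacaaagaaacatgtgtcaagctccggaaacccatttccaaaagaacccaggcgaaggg
The *Tenm4* intron site chr7:96670790-96671023 held 2 TAAT cores close together and an E-box of the other type, CAGATG. A second site in the same gene, chr7:96808005-96808261, held 5 cores and an ONECUT match. In the *Ntrk3* site, 9 TAAT cores formed groups with 2 copies of TAATTA. The *Pou4f1* site, in an intron of the lincRNA gene D130079A08Rik, held 5 cores and no CAGCTG. The *Bcl11b* and *Mycn* sites held a CAGCTG in addition to 5 and 2 cores, close to a core in *Bcl11b* only. Both *Tenm4* contrasts carried TAAT cores too, 5 in the ATAC-alone site and 2 in the unmarked site. The ATAC-alone contrast also held a CAGCTG, while neither *Tenm4* site with both marks did.

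The 409 sites were a small share of the places where Brn3a and Isl1 met. Of the 32822 Brn3a peaks, 23670 (72.1%) were Brn3a_BRNF peaks, 21675 of these lay more than 1 kb from a TSS, and 6246 of those distal peaks (28.8%) overlapped an Isl1_LHXF peak. These 6246 sites comprised 409 with ATAC and H3K27Ac and no Runx3 (6.55%, 95% Wilson interval 5.96–7.19%), 1550 with ATAC alone and no Runx3 (24.8%), 2057 with neither mark and no Runx3 (32.9%), 111 with H3K27Ac alone and no Runx3 (1.78%) and 530 with ATAC, H3K27Ac and Runx3 (8.49%). The remainder had Runx3 with ATAC alone (1113 sites), with H3K27Ac alone (49) or with neither mark (427). Among distal Brn3a_BRNF peaks free of Runx3, both marks were present at 409 of 4127 with Isl1_LHXF (9.91%, 9.04–10.9%) and at 763 of 14304 without it (5.33%, 4.98–5.71%). With Isl1_LHXF and Runx3 together, 530 of 2119 sites (25%, 23.2–26.9%) had both marks. These shares are given without a test, since the same lists define the sites.

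The peaks of a site lay close together, which the required overlap favors. Brn3a peaks spanned a median of 321 bp (238 and 421 bp at the quartiles), the Isl1 peak 264 bp, the ATAC peak 272 bp and the H3K27Ac peak 606 bp (quartiles 414 and 850 bp). Over all peaks of each list the median was 214 bp for Brn3a, 218 bp for Isl1, 204 bp for ATAC and 716 bp for H3K27Ac. The Isl1 midpoint lay a median of 35 bp from the Brn3a midpoint, the ATAC midpoint 42 bp and the H3K27Ac midpoint 117 bp. At 345 sites (84.4%) Isl1 and Brn3a midpoints were within 100 bp, and at 364 sites (89.0%) the Brn3a midpoint lay inside the H3K27Ac peak. In ATAC-alone sites Isl1 and Brn3a midpoints were within 100 bp at 89.5%. The sites were chosen by overlap, so these distances describe the selection and were not tested. In 378 of the 409 sites the 4 intervals as deposited shared at least 1 base, so the widening of narrow peaks mattered for few. The Brn3a peaks ranged from 75 bp, in an intron of *Ebf1*, to 1299 bp, in an intergenic region near *Zfp608*. The H3K27Ac peaks ranged from 137 bp near *Clint1* to 4089 bp in *Jakmip3*. In 71 sites the H3K27Ac peak exceeded 1000 bp, and in 39 it was under 300 bp.

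Median peak widths differed between some categories of sites and were close between others. For Isl1 peaks the median was 264 bp with both marks, 262 bp with ATAC alone and 230 bp with neither mark. ATAC peaks had a median of 272 bp in the sites with both marks and 213.5 bp in ATAC-alone sites. Brn3a peaks had medians of 321 bp with both marks, 310 bp with ATAC alone and 271 bp with neither mark. In the 409 sites without Runx3 the medians were 321 bp for Brn3a, 264 bp for Isl1 and 272 bp for ATAC, against 402.5, 347 and 351 bp where Runx3 was present as well. H3K27Ac peaks had a median of 606 bp in the 409 sites and 625 bp in those with Runx3. A wider peak has more room to overlap another, so these widths describe the categories and were not tested.

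**Figure D1:**
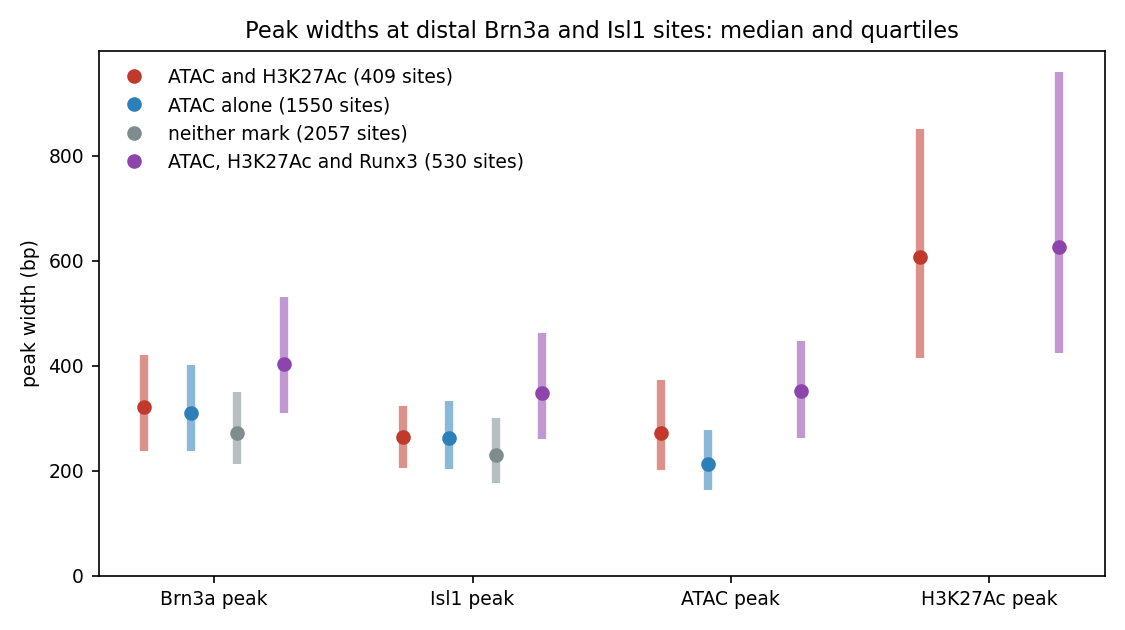
Median (point) and quartiles (bar) of the width in bp of Brn3a, Isl1, ATAC and H3K27Ac peaks in 4 categories of distal Brn3a and Isl1 sites; categories without a mark have no bar for it. Brn3a peaks have a median of 321 bp in the 409 sites with both marks and no Runx3, under the 402.5 bp of sites with ATAC, H3K27Ac and Runx3.

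The sites were nearly all separate from each other. The 409 sites used 408 Isl1 peaks, 404 ATAC peaks and 402 H3K27Ac peaks. In 7 cases a pair of sites shared an H3K27Ac peak, in *5730522E02Rik*, *Rgs6*, *Nebl*, *Uqcc1* and *Igfbpl1*, in the lincRNA gene Gm33035 near *Rhobtb1*, and upstream of *Gas2*. Another site of the set lay within 10 kb of 18 sites (4.4%). At 9 sites the H3K27Ac peak itself reached to within 1 kb of a TSS, and at 3 the ATAC peak did. Just inside the distance limit were a site 1015 bp from a TSS of *Tub* and one in an intron of *Clmp*, 1065 bp from a TSS of Gm16095. Just outside it, sites of the same kind lay 993 bp from a TSS of *Hoxc4*, 969 bp from Gm47805 and 950 bp from Gm9754, and 62 such sites in all were within 1 kb. The nearest Runx3 midpoint to any of the 409 sites was at 340 bp, and 23 sites had one within 1 kb.

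Introns were the main location. Of the 409 sites, 252 (61.6%) resided in introns, 139 (34.0%) were intergenic and 18 (4.4%) lay in exons of an annotated gene. Intron sites were a median of 12699 bp from the nearest TSS of any gene, and intergenic sites 22368 bp. The farthest was 354643 bp away, in an intron of *Npas3*. Median widths were similar by location, 308 bp for Brn3a peaks in introns and 343 bp in intergenic regions, and 585 and 619 bp for H3K27Ac.

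To learn whether sites with both ATAC and H3K27Ac differ from other distal Brn3a and Isl1 sites in ways the selection did not use, 28 features were compared by two-sided Fisher's exact tests with Benjamini-Hochberg adjustment. The sites with H3K27Ac alone were not tested, so the comparisons cover H3K27Ac only where ATAC was present too. They were 20 motifs of other factors in a 300 bp window about the Brn3a midpoint and 8 features of place and neighborhood. Letters of some motifs, such as ONECUT and PBX-HOX, can share bases with TAAT. For these the comparison is not independent of the motifs that chose the sites. Because sites are the units, p reflects counting error alone and says nothing of variation among embryos. Sites around the same gene are not independent of each other. Against the 1550 ATAC-alone sites, 10 features (35.7% of the 28) were more frequent in the 409 sites and 2 (7.14%) were less frequent. Against the 2057 sites with neither mark, 12 (42.9%) were more frequent and 2 (7.14%) less frequent.

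Sites with ATAC and H3K27Ac lay inside genes and near TSSs more often. A protein-coding gene contained 244 of the 409 sites (59.7%), against 671 of 1550 ATAC-alone sites (43.3%; odds ratio 1.94, 95% interval 1.54–2.43, adjusted p = 1.19e-07, Fisher's exact test). The share was 46.0% in sites with neither mark (odds ratio 1.73, adjusted exact p = 4.00e-06). A TSS of any gene was within 10 kb of 150 sites (36.7%) with both marks, 26.5% of ATAC-alone sites (odds ratio 1.61, adjusted exact p = 2.91e-04) and 27.6% of sites with neither mark (odds ratio 1.52, adjusted p = 0.00109). Within 50 kb the share was 85.8% with both marks and 74.3% with ATAC alone (odds ratio 2.10, adjusted exact p = 3.47e-06). The median distance to the nearest protein-coding TSS was 34243 bp with both marks, 72849.5 bp with ATAC alone and 61497 bp with neither mark.

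Neighborhoods differed as well. An H3K27Ac peak marked the promoter of the nearest protein-coding gene for 216 of the 409 sites (52.8%) and for 45.6% of ATAC-alone sites (odds ratio 1.33, 95% interval 1.07–1.67, adjusted exact p = 0.0243), counting no peak that touched the site itself. Against sites with neither mark (47.1%) this difference did not pass (odds ratio 1.26, adjusted exact p = 0.0647). An ATAC peak at that promoter was about as frequent, 54.8% with both marks and 52.8% with ATAC alone (odds ratio 1.08, 95% interval 0.866–1.36, adjusted exact p = 0.613). Although no Runx3 peak overlapped these sites, 98 of them (24.0%) had one within 10 kb, against 13.4% of ATAC-alone sites (odds ratio 2.03, 95% interval 1.53–2.68, adjusted exact p = 3.80e-06) and 16.7% of sites with neither mark (odds ratio 1.57, adjusted p = 0.00242). Runx3 at the promoter of the nearest gene was found for 82 sites (20.05%) with both marks and for 14.0% with ATAC alone (odds ratio 1.54, adjusted exact p = 0.00829). With 1 site per nearest gene, the Runx3 promoter difference no longer passed (odds ratio 1.43, adjusted exact p = 0.0580 against ATAC alone; 1.29, adjusted p = 0.169 against neither mark), and neither did a TSS within 10 kb against neither mark (1.28, adjusted p = 0.0828). Another distal Brn3a_BRNF peak within 10 kb was present for 45.7% of sites with both marks and 41.3% of ATAC-alone sites (odds ratio 1.20, adjusted exact p = 0.201).

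**Figure D2:**
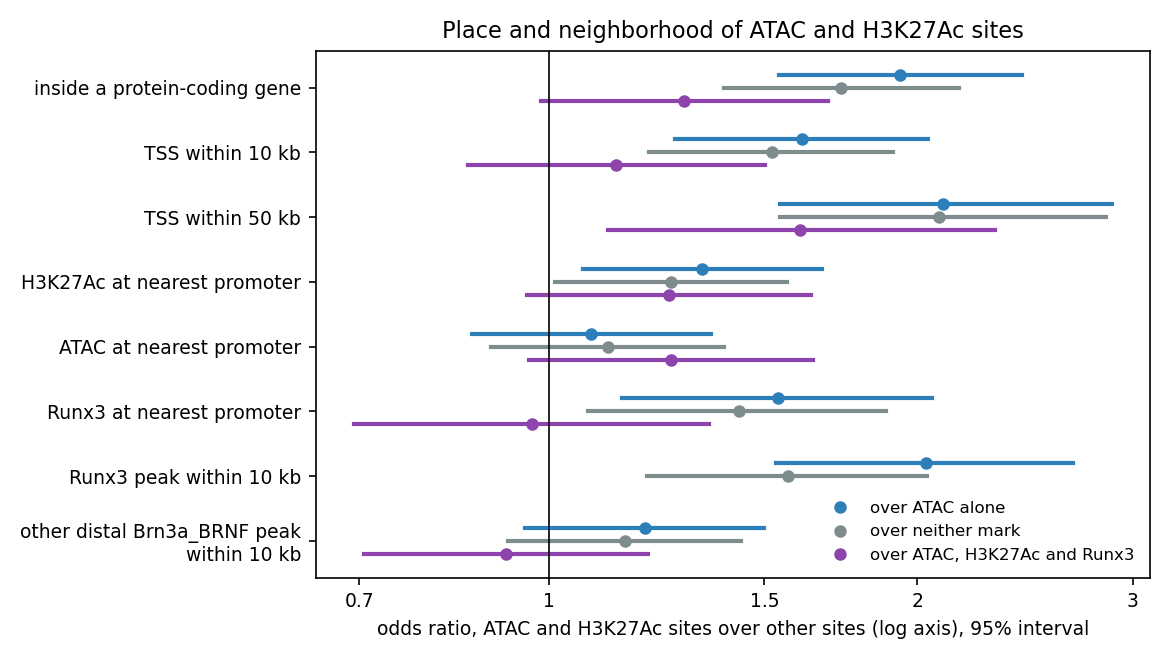
Odds ratio (point, log axis) and 95% interval (line) of each feature of place and neighborhood in the 409 sites with ATAC and H3K27Ac over ATAC-alone sites, over sites with neither mark and over sites with ATAC, H3K27Ac and Runx3. The largest of these against ATAC alone are a TSS within 50 kb (2.10) and a Runx3 peak within 10 kb (2.03), and the intervals against sites with Runx3 include 1 except for a TSS within 50 kb.

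Base composition separated the categories and bears on every motif below. GC content of the 300 bp window had a median of 48.3% in the 409 sites (quartiles 45 and 51.0%), 43.3% in ATAC-alone sites, 42.0% in sites with neither mark and 49.3% in those with Runx3. The median number of CG dinucleotides was 5 in sites with both marks and 3 in ATAC-alone sites and sites with neither mark. Each motif was therefore also compared within 3 bins of GC content, and within 10 bins chosen after the data were seen because 3 bins left some of the difference in composition. Values within GC bins are Mantel-Haenszel odds ratios with chi-square tests, and all others are from Fisher's exact test. Among all words of 6 letters, with both strands joined, 183 (8.8%) were more frequent and 139 (6.68%) less frequent with both marks than with ATAC alone. Of the 183, 171 have at least 4 letters G or C, and of the 139, 138 have at most 2. The leading ones were CCTCCC (38.6% against 21.03%), CTGGGC (32.8% against 16.8%) and GCTGCC (36.4% against 20.3%). The first of the less frequent ones was AAAATA (15.4% against 28.7%).

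The E-box CAGCTG, bound by bHLH factors, was more frequent with both marks, but against ATAC alone the difference did not pass within GC bins. It was found in 138 of the 409 sites (33.7%, 29.3–38.5%), in 353 ATAC-alone sites (22.8%; odds ratio 1.73, 95% interval 1.35–2.20, adjusted exact p = 5.06e-05) and in 18.8% of sites with neither mark (odds ratio 2.20, adjusted p = 1.33e-09). Within 10 GC bins the odds ratio was 1.18 against ATAC alone (adjusted chi-square p = 0.464; 1.29 and 0.183 in 3 bins) and 1.43 against neither mark (adjusted p = 0.0379). In windows 2 kb to either side of the 409 sites the share was 12.8%, and in 32851 RefSeq promoter windows of the same length (GRCm38.p6) 16.3%. In H3K27Ac-alone sites it was 22.5%. In the 409 sites matches were concentrated at the center, with 1.59 and 1.49 per kb and site in the 100 bp to the left and right of the Brn3a midpoint, and 0.562 and 0.587 at 900 to 1000 bp. ATAC-alone sites had a rise at the center too, with 0.877 and 0.987 there and 0.323 and 0.413 at 900 to 1000 bp. The other E-box, CAGATG, bound by the proneural factors Neurog1 and Neurod1 (17.2% of promoter windows), was found in 32.8% of sites with both marks and 32.3% of ATAC-alone sites (odds ratio 1.02, 95% interval 0.804–1.298, adjusted exact p = 0.890).

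ONECUT matches (ATCAAT or ATCGAT, either strand), named after the cut-homeodomain factors that developing neurons make, were less frequent with both marks. ONECUT letters occurred in 105 of the 409 sites (25.7%), 39.3% of ATAC-alone sites (odds ratio 0.534, 95% interval 0.414–0.685, adjusted exact p = 3.47e-06) and 42.7% of sites with neither mark (odds ratio 0.463, adjusted p = 1.33e-09). This difference held within 10 GC bins, at 0.658 against ATAC alone (adjusted chi-square p = 0.0158) and 0.666 against neither mark (adjusted p = 0.0304). Even so, the 25.7% exceeded the 10.5% of windows 2 kb away and the 8.40% of promoter windows. PBX-HOX matches (TGATNNAT, which can share letters with ATCAAT on the other strand) were also less frequent (8.85% of promoter windows), at 28.4% with both marks, 37.1% with ATAC alone (odds ratio 0.671, adjusted exact p = 0.00387) and 36.6% with neither mark (0.686, adjusted p = 0.00462). Within 10 GC bins the odds ratio was 0.820 against ATAC alone (adjusted chi-square p = 0.424) and turned to 1.05 against neither mark (adjusted p = 0.877). In H3K27Ac-alone sites the share was 33.3% for ONECUT and 21.6% for PBX-HOX.

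SOX matches (ACAATG or ACAAAG; 28.6% of promoter windows) were present in 175 sites with both marks (42.8%), 37.9% with ATAC alone (odds ratio 1.23, adjusted exact p = 0.154) and 34.6% with neither mark (odds ratio 1.42, adjusted p = 0.00481). Within 10 GC bins the odds ratios were 1.54 (adjusted chi-square p = 0.00657) and 1.79 (adjusted p = 6.17e-05), while against neither mark the unbinned difference did not pass in windows of 200 bp (1.24, adjusted p = 0.139) or 500 bp (1.23, adjusted p = 0.100). The SOX share was 35.3% in windows 2 kb away and 26.1% in H3K27Ac-alone sites. SOX matches were not concentrated at the center of the 409 sites. They numbered 1.69 per kb and site in the 100 bp left of the Brn3a midpoint, and 1.69 at 100 to 200 bp to the left. In ATAC-alone sites the same bins held 1.49 and 1.93, and with neither mark 1.44 and 1.59. The CRE letters TGACGT, from the site of CREB and related factors (7.51% of promoter windows), occurred in 32 sites with both marks (7.82%) and in 3.81% of ATAC-alone sites (odds ratio 2.15, adjusted exact p = 0.00413; 1.99 and 0.0198 in 10 GC bins). Against neither mark (3.99%) the CRE odds ratio was 2.04 (adjusted exact p = 0.00481), and 1.51 in 10 GC bins (adjusted p = 0.195). SMAD matches (CAGACA or GTCTAGAC; 21.2% of promoter windows) were found in 34.7% of sites with both marks and 26.0% with ATAC alone (odds ratio 1.51, adjusted exact p = 0.00252), a difference that passed in 3 GC bins (1.41, adjusted p = 0.0320) but not in 10 (1.35, adjusted p = 0.0920) or in a 200 bp window (1.34, adjusted p = 0.0584). Against neither mark (24.4%) the SMAD odds ratio was 1.65 (adjusted exact p = 1.13e-04), and 1.42 in 10 GC bins (adjusted p = 0.0379). In H3K27Ac-alone sites the share was 25.2% for SMAD and 9.91% for CRE letters.

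EBF matches (CCCNNGGG), named after the early B-cell factors that sensory neurons also make (13.7% of promoter windows), were present in 16.1% of sites with both marks and 16.8% with ATAC alone (odds ratio 0.955, adjusted exact p = 0.886). Within GC bins they were less frequent with both marks, at 0.559 in 10 bins (adjusted chi-square p = 0.00657) and 0.613 in 3 bins (adjusted p = 0.0152), but in a 500 bp window without bins the odds ratio was 1.10 (adjusted p = 0.618). The CTCF core AGGGGGC (10.6% of promoter windows) was found in 31 sites with both marks (7.58%) and in 3.68% with ATAC alone (odds ratio 2.15, adjusted exact p = 0.00493). It did not pass in 10 GC bins (1.29, adjusted chi-square p = 0.659) or with an overlap of 50% of the shorter peak (1.80, adjusted exact p = 0.0544). Against neither mark, ETS (CCGGAA, 14.9% of promoter windows; odds ratio 2.37, adjusted exact p = 0.0113) and KLF-SP letters (GGGCGG or GGGTGTGG, 37.8% of promoter windows; 1.98, adjusted p = 0.0113) were also more frequent, and neither passed in 10 GC bins (1.20, adjusted p = 0.843, and 1.01, adjusted p = 0.926).

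RUNX letters, searched as ACCACA and its form ACCGCA and likewise as GCCACA and its form GCCGCA, occurred in 136 of the 409 sites (33.3%) and in 33.4% of ATAC-alone sites (odds ratio 0.995, 95% interval 0.783–1.26, adjusted exact p = 1). They were present in 37.7% of windows 2 kb away, 45.2% of promoter windows and 52.6% of sites with Runx3, which the selection separates. The remaining motifs searched did not pass against ATAC alone. MEIS letters (TGACAG) were present in 26.4% of sites with both marks and 19.2% of promoter windows. GATA letters (AGATAA) were present in 18.1% and 11.2%. TEAD letters (GGAATG) were present in 16.1% and 14.7%, and AP-1 letters (TGANTCA) in 14.9% and 7.81%. NFI letters (TTGGCA) were present in 14.9% and 14.1%. TCF-LEF letters (CTTTGAT, or CTTTGTT, which contains the SOX letters on the other strand) were present in 12.5% and 9.33%. In ATAC-alone sites and in windows 2 kb away, MEIS letters were present in 29.6% and 22.2%, and GATA letters in 21.9% and 17.1%. TEAD letters were present there in 16.7% and 15.4%, and AP-1 letters in 12.9% and 8.68%. NFI letters stood at 15.5% and 13.0%, and TCF-LEF letters at 11.1% and 11.1%. The POU octamer (ATGCAAAT) was found in 8 sites and REST letters (TTCAGCACC) in 4. A site held a median of 4 of the 20 motifs, from 0 at 8 sites up to 9. CAGCTG and ONECUT occurred together in 34 sites, and neither in 200. A match to these letters is a description of the sequence and not of binding.

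**Figure D3:**
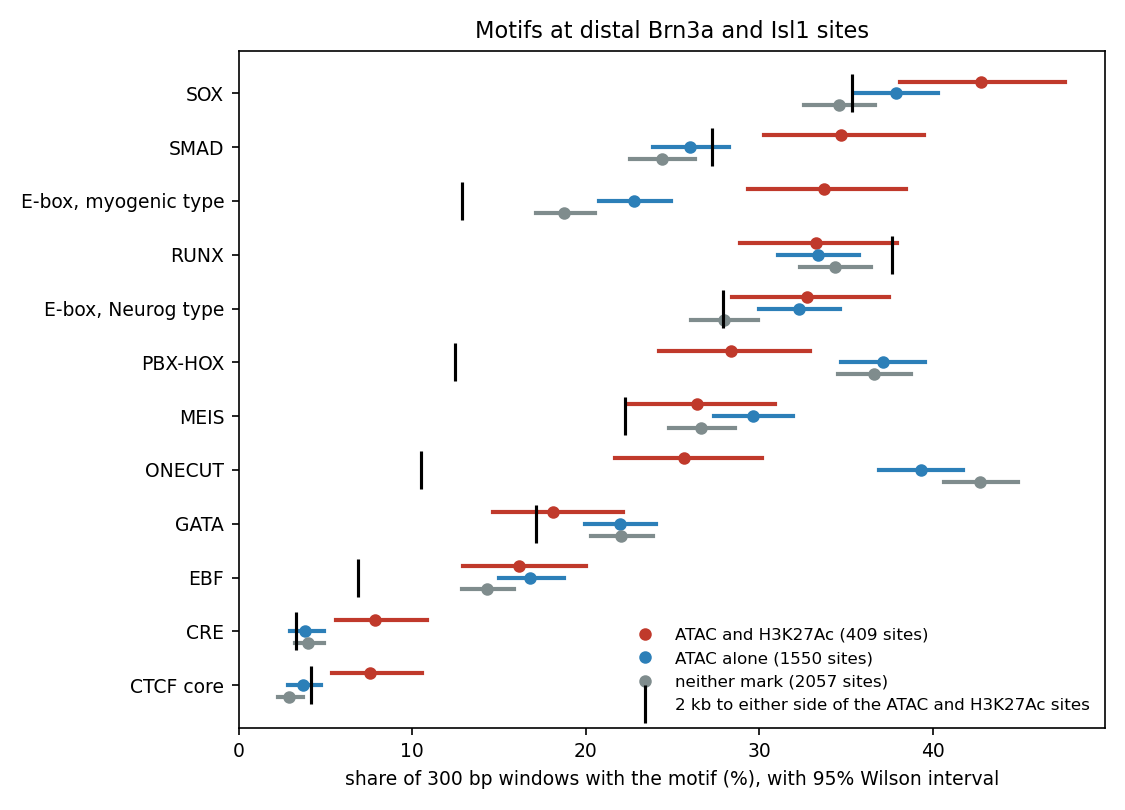
Share (%) of 300 bp windows about the Brn3a midpoint that hold each of 12 motifs, with 95% Wilson intervals, in the 409 sites with ATAC and H3K27Ac, in ATAC-alone sites and in sites with neither mark; black ticks give windows 2 kb to either side of the 409 sites. The E-box CAGCTG (myogenic type) stands at 33.7%, 22.8% and 18.8%, and ONECUT runs the other way at 25.7%, 39.3% and 42.7%, neither of them corrected for GC content.

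The motifs of Brn3a and Isl1 themselves chose the sites and are given without a test. TAAT, on either strand, was present in 406 of the 409 windows (99.3%) with a median of 4 copies, against 78.5% of windows 2 kb away. The longer POU4-type letters ATAATNAAT were present in 5.13% of the sites (2.57% of windows 2 kb away), TAATTA in 22.7% (8.31%) and CTAATG in 30.3% (13.0%), and all contain TAAT. In ATAC-alone sites the shares were 8.77%, 25.1% and 33.9%, and in sites with neither mark 9.58%, 28.7% and 38.6%. TAAT matches reached 14.8 per kb and site in the 100 bp left of the midpoint with both marks, 18.6 with ATAC alone and 20.6 with neither mark, while at 900 to 1000 bp to the left they were 7.87, 10.6 and 9.13. Among all words of 6 letters, CCATTA differed most between the 409 sites and their flanks (36.7% and 9.90%), followed by AGCTGC (39.4% and 16.5%), CATTAA (38.6% and 16.0%) and CAGCTG (33.7% and 12.8%). Flanks are not centered on a peak, so these values describe peaks and were not tested.

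**Figure D4:**
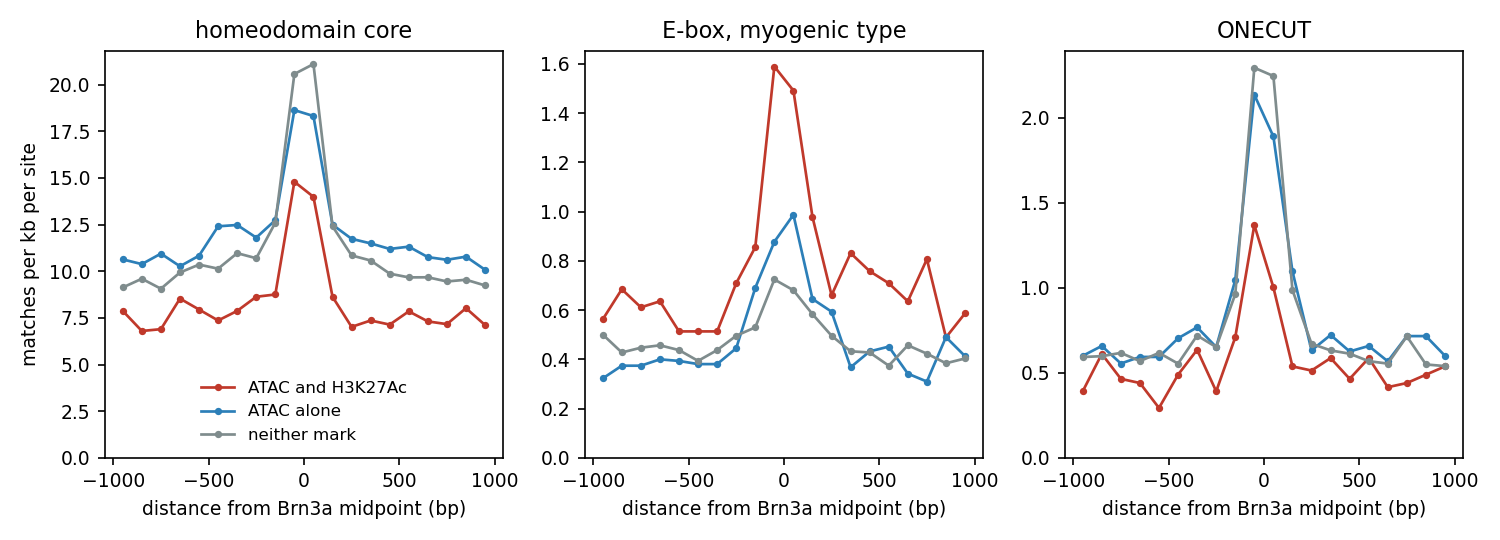
Matches per kb and site in 100 bp bins by distance (bp) from the Brn3a midpoint, for the homeodomain core TAAT, the E-box CAGCTG (myogenic type) and ONECUT, in sites with ATAC and H3K27Ac, with ATAC alone and with neither mark. All 3 motifs peak at the midpoint. The E-box is highest with both marks (1.59 per kb and site left of the midpoint) and TAAT lowest (14.8, against 18.6 with ATAC alone and 20.6 with neither mark), neither of them corrected for GC content.

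Sites with both marks were then compared with the 530 sites that carried Runx3 as well. None of 26 features passed in either direction (0%; smallest adjusted p = 0.171, Fisher's exact test), and 5 had an unadjusted p under 0.05. These were a TSS within 50 kb (85.8% without Runx3 and 79.1% with it; odds ratio 1.60, 95% interval 1.12–2.31), KLF-SP letters (6.60% and 11.1%; 0.564, 0.337–0.925), EBF (16.1% and 22.1%; 0.679, 0.478–0.960), SOX (42.8% and 35.8%; 1.34, 1.02–1.76) and SMAD (34.7% and 28.1%; 1.36, 1.02–1.81). CAGCTG stood at 33.7% without Runx3 and 32.6% with it (odds ratio 1.05, 95% interval 0.791–1.39). ONECUT stood at 25.7% and 30.9% (odds ratio 0.771, 95% interval 0.571–1.04). The intervals leave room for differences of this size, and the count of 0 does not show that the categories are alike.

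The 409 sites fell into the regulatory domains of 663 of 21938 protein-coding genes (3.02%). A domain starts with 5 kb upstream and 1 kb downstream of a gene's TSS and is extended on each side to its neighbor's basal part, by no more than 1 Mb, so 364 sites belong to at least 2 genes. Of the 663 genes, 568 had 1 site, 83 had 2, 10 had 3 and 2 had 4. Domains with a site were long (median 407.8 kb, and 89.5 kb over all genes). H3K27Ac marked the 5′ TSS (within 1 kb) of 466 of the 663 genes (70.3%), against 54.9% of all genes. An ATAC-alone site was also present for 240 of the 663, a site with neither mark for 310 and a site with Runx3 for 179.

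*Tenm4*, which encodes a teneurin adhesion protein of neurons, had 4 sites, all in its introns, at 117, 331, 500 and 637 kb from the TSS. The same sites count for its neighbor *Nars2*, a mitochondrial tRNA synthetase gene. *Auts2*, a neurodevelopmental gene, held 3 sites in introns (252 to 768 kb from the TSS) within a domain that also held 7 ATAC-alone sites and 12 with neither mark, and *Galnt17* beside it shares them. *Prkce*, encoding protein kinase C epsilon, had 3 intron sites at 137, 144 and 243 kb, with no ATAC-alone or unmarked site in its domain. The gene model Gm10309 shares those. *Asph* and *Clvs1* shared 3 sites, at 118 to 346 kb from the *Asph* TSS. Between *Slc17a6*, whose product VGLUT2 loads glutamate into synaptic vesicles, and *Gas2* lay 3 intergenic sites, 127, 128 and 210 kb downstream of the *Slc17a6* TSS. The first 2 of these lie in a single H3K27Ac peak of 1494 bp. *5730522E02Rik* and *2010111I01Rik* had 2 each.

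*Pou4f1* itself had 3 sites downstream of its gene, at 10.8, 170 and 322 kb from its TSS, the first 2 in introns of D130079A08Rik. The Brn3a peaks were 460, 512 and 381 bp wide, and the H3K27Ac peaks 378, 582 and 223 bp. The domain also held 6 ATAC-alone sites and 6 with neither mark, and none with Runx3. *Ednrb*, an endothelin receptor gene of the neural crest, shares these 3 sites at 301 to 613 kb. *Isl1*, *Runx3* and *Etv1*, the ETS factor of proprioceptors, had no such site in their domains. The study describes 3 distant *Runx3* enhancers where Brn3a_BRNF and Isl1_LHXF peaks overlap, and all 3 also bind Runx3. It places 2 of them in regions with ATAC and H3K27Ac. Sites with any Runx3 peak were left out of the selection, so these enhancers could not be counted.

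Of 43 TF genes of sensory neurons, 9 had a site (20.9%, against 3.02% of all genes). Per Mb of domain this list held 0.444 sites with both marks, 2.29 with ATAC alone and 2.29 with neither mark, against 0.167, 0.578 and 0.791 over all genes. Neither value is particular to this list. Among the lists below, the density with both marks was higher for genes used by every cell (0.594, from 1 site), blood (0.509, from 1 site) and glia and neural crest (0.488). It was lower for the other lists. The share with a site was 20% for axon guidance and for mesenchyme, and 21.9% for neuronal adhesion. Beside *Pou4f1*, the SoxC genes *Sox11* and *Sox4* had 2 and 1, all far upstream (224, 233 and 816 kb). The *Sox4* site is in an intron of *Cdkal1*, its nearest gene. *Lmx1b*, *Ebf1* and *Bcl11b* had an intron site each, at 23.9, 79.7 and 43.5 kb from their TSS. *Nhlh2*, a bHLH gene of newborn neurons, had an intergenic site 15.3 kb downstream, and *Zeb2*, a zinc finger repressor, had an exonic site 116 kb downstream of its TSS. ATAC-alone sites were found for 24 of the 43 genes and unmarked sites for 26.

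Neurotrophic factor receptors relay the signals on which sensory neurons depend for survival. Of 14 listed, 3 had a site with both marks (21.4%, against 3.02% of all genes, with a median domain of 411 kb against 89.5 kb), 3 had one with ATAC alone and 8 had one with neither mark. *Ntrk3*, which encodes TrkC, had 1, intergenic and 966 kb downstream of its TSS, in a domain with 1 ATAC-alone site, 5 with neither mark and 3 with Runx3. *Cntfr*, the receptor of ciliary neurotrophic factor, had 1 in an intron 12.2 kb from its TSS. *Il6st*, encoding the shared signaling subunit gp130, had 1 at 133 kb upstream in an intron of *Ankrd55*, its nearest gene. Over the list, 3 sites had both marks, 3 had ATAC alone and 22 had neither, counting a site once for each gene.

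The other lists were as follows. Ion channels of sensory neurons had a site at 2 of 32 genes (6.25%), *Piezo2*, the mechanosensitive channel of proprioceptors (109 kb upstream), and *Cacna2d1*, a calcium channel subunit (56.9 kb into the gene, in an intron). Axon guidance genes had one at 6 of 30, with 2 sites each at *Efna5* and *Slit1*. Neuronal adhesion genes had one at 7 of 32, among them *Cdh4* and *Ncam1* with 2. Genes used by most neurons had one at 2 of 23 (*Elavl4* and *Gap43*). Among genes of other cells there were 2 of 12 for glia and neural crest (*Ednrb* and *Sox9*), 2 of 10 for mesenchyme (*Dcn* and *Twist2*), 1 of 15 for blood (*Ptprc*), 0 of 12 for muscle and liver, and 1 of 20 for genes used by every cell (*Ywhaz*). The median domain was 1114.83 kb for axon guidance, 1688.12 kb for adhesion, 393 kb for TF genes, 244 kb for ion channels and 53.1 kb for genes used by every cell, against 89.5 kb for all genes, and a long domain holds more sites. Counts over the lists were not tested.

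Of 53 genes that the study names, 9 had a site (17.0%, against 3.02% of all genes, with a median domain of 493 kb against 89.5 kb). Beside *Pou4f1*, *Ntrk3* and *Piezo2*, they included *Mycn*, a proto-oncogene TF (257 kb downstream, intergenic), *Cartpt*, a neuropeptide precursor (177 kb downstream, intergenic), *Zfp536*, a zinc finger gene (399 kb downstream, intergenic), *Pcp4*, a calmodulin regulator (631 kb downstream, in an intron of *Dscam*), and *Nr5a2*, a nuclear receptor (646 kb upstream, with *Ptprc* as the nearest gene). The study chose its Runx3 target genes with Runx3 peaks of these samples, together with RNA-seq of other samples, so this count is not independent. Within its 203 bases the *Mycn* site printed above held CAGCTG, ETS, SOX, CRE and CTCF core letters.

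**Figure D5:**
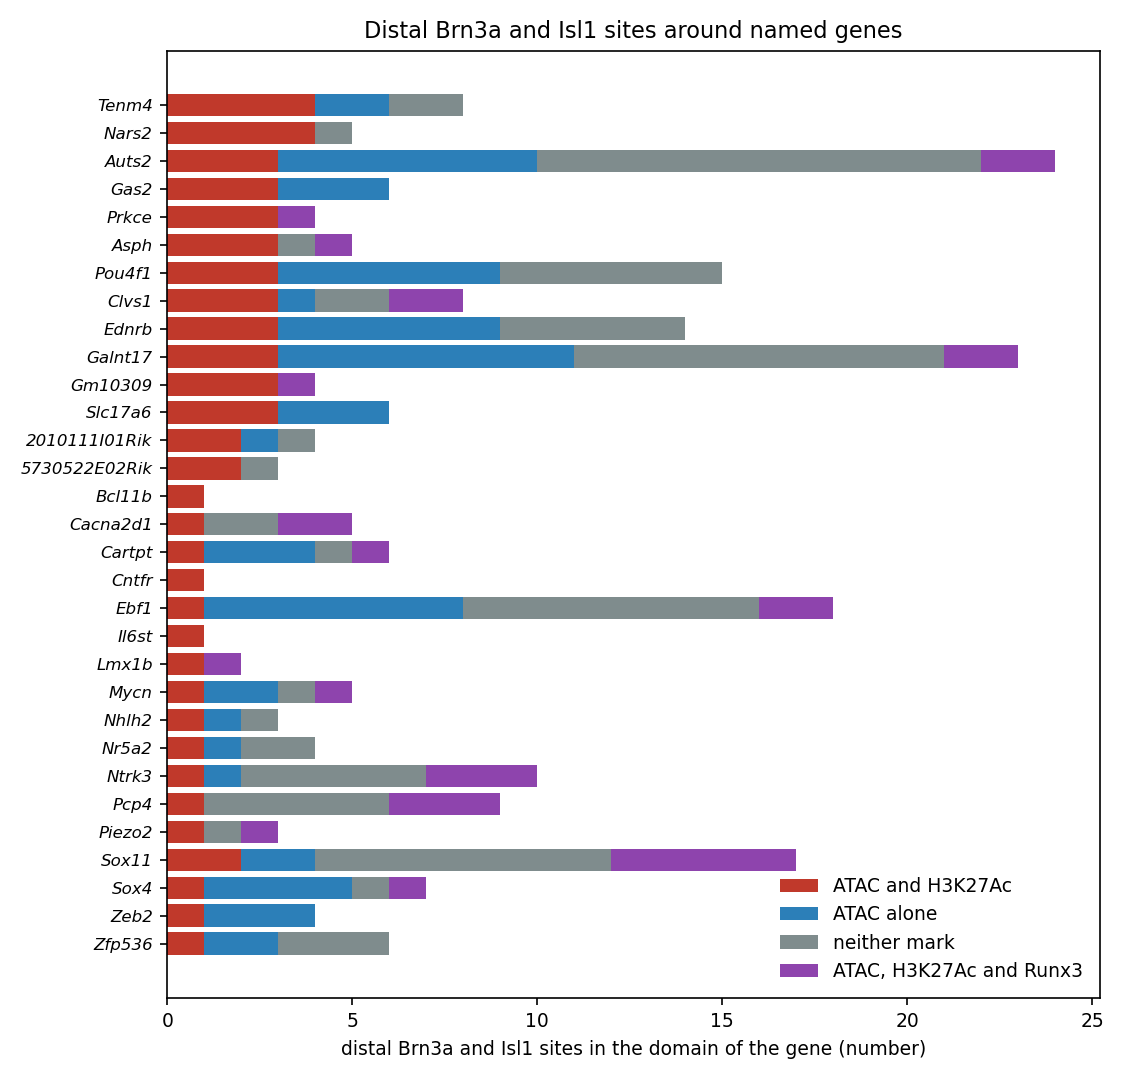
Number of distal Brn3a and Isl1 sites in the domain of each gene shown, stacked by category (ATAC and H3K27Ac; ATAC alone; neither mark; ATAC, H3K27Ac and Runx3). *Tenm4* and *Nars2* share 4 sites with both marks, while *Auts2* and *Galnt17* have 3 among many ATAC-alone and unmarked sites; neighboring genes share sites.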

How the data were processed

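The authors trimmed reads with Cutadapt, aligned them to mm10 with Bowtie2, called peaks with MACS2 (CUT&RUN against non-immune serum) and kept peaks found in at least 50% of the samples of a target. They removed peaks lying mostly in repeats and blacklisted regions. The deposited values, as given by the authors, are peak positions, V$BRNF and V$LHXF marks and counts of RUNX sites. Neither signal nor reads are given, and the depth of a site cannot be known. Only short CUT&RUN fragments were used for peak calling, which come mostly from DNA between nucleosomes, so H3K27Ac peaks can be narrow or missed, and an absent peak is not an absent mark.

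Here, starts were read as 1-based. Peaks under 300 bp (ATAC under 500 bp) were widened to that length around the midpoint, and an overlap of 1 bp was required. TSSs came from GENCODE M21 and sequence from the GRCm38.p6 RefSeq genome. Motifs were counted on both strands of 300 bp windows. Features and words of 6 letters were compared by two-sided Fisher's exact tests with Benjamini-Hochberg adjustment, and within GC bins by Mantel-Haenszel odds ratios. The code was tested on simulated data. Fisher's tests used scipy 1.17.1, GC bins statsmodels 0.14.6, sequence pysam 0.24.0, tables pandas 2.3.3 with numpy 2.4.6, and plots matplotlib 3.10.9, all in Python 3.11.15.

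Named genes are the 15 with most sites, each gene with a site in the lists of sensory TFs, neurotrophic receptors and ion channels, and genes the study names; others were named after their values were seen. The sites and gene lists were chosen with earlier results of these data known. Alternatives covered widening, overlap, Runx3 peaks, distance to a TSS, window, GC bins, 1 site per gene and the assignment of genes. One Brn3a peak outside the nuclear chromosomes was left out. Some genes that meet the naming rule are not reported here.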

Additional observations from a re-analysis of the deposited data

How the results depend on the processing

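The number of sites was 409 and lay between 350 (fixed peak widths) and 603 (only Runx3 peaks with a RUNX site remove a site) under the other choices of widening, overlap, distance and coordinate base. Features that passed against ATAC-alone sites numbered 12, and 11 to 15 under other windows, widening, overlap or 1 site per gene. Against sites with neither mark 9 motifs passed. In 3 GC bins 4 passed, all among the 9, and in 10 GC bins 5 passed, of which 4 were among the 9 and EBF was not, and PBX-HOX turned to an odds ratio of 1.05 in 10 bins. Against ATAC alone 6 motifs passed, of which 3 passed in 3 bins and 2 in 10 bins, beside SOX and EBF, which passed only within bins, and EBF had an odds ratio of 1.10 in a 500 bp window. Words of 6 letters that passed numbered 322, 133 with a 200 bp window, 633 with a 500 bp window and 222 with 1 site per gene. Genes with a site numbered 663 by domain, 360 by nearest TSS and 214 by gene body. The count against sites with Runx3 was 0 under each alternative run. The 10 GC bins were chosen after seeing the data. Beyond the construction of each alternative, the cause of these changes was not tested. No paired analysis was possible because each list pools the samples of its target and holds no values per replicate, and for the same reason no replicate could be left out. Depth is unknown, so a site without an ATAC, H3K27Ac or Runx3 peak may lie under the detection limit of that list.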
